A study of Caenorhabditis elegans with 4 samples.

Results

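Runs of closely spaced HDA-1 peaks were sets of 5 or more peaks on 1 chromosome in which every peak lay under 1000 bp from the next. Members were chosen by the start and end positions of the peaks in the whole-series list, the list deposited for the series as a whole. The 300 runs held 1986 of its 14199 peaks (14.0%), and the other 12213 peaks lay alone or in chains of 2 to 4. The runs spanned 1.39 Mb, which was 1.38% of the 100.2 Mb between the first bases and the last peaks of the 6 nuclear chromosomes. Because positions chose the members, the number, spacing and density of the runs are given as a description, with no test.

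The nematode Caenorhabditis elegans has HDA-1 as one of its class I histone deacetylases. Enzymes of this class take acetyl groups off histone tails, work within corepressor complexes such as NuRD and SIN3, and are brought to promoters and enhancers by the transcription factors that those complexes bind. Loss of HDA-1 is known to disturb embryonic, gonadal and vulval development in this worm. A region in which several such elements lie side by side can hold several peaks within a few kilobases, and so can a broad region of signal that a peak caller splits into pieces.

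The study mapped HDA-1 by chromatin immunoprecipitation and sequencing (ChIP-seq) in N2, the standard wild-type strain, as L3 larvae at 20 °C from a population of both males and hermaphrodites. There were 2 HDA-1 ChIP libraries, called replicates 1 and 2, and 2 input DNA libraries, which were not analysed here. An affinity-purified rabbit polyclonal antibody raised against HDA-1 was used for both ChIP libraries, and the chromatin was fixed with EGS for 20 minutes and with EGS and formaldehyde for a further 10 minutes. EGS is a long crosslinker that joins proteins to each other, so a peak can lie where HDA-1 reached DNA through a partner. Replicate 1 had 11762 peaks and replicate 2 had 9901. The lists hold positions and the authors' score for each peak but no read counts, so the depth behind a peak is unknown. Whether the replicates came from separate cultures is not stated in the labels, and the whole-series list is not independent of the replicate lists. Coordinates are on the WS220 build as the files give them, and no gene was assigned to a run.

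Most runs were short. There were 127 runs of 5 peaks, 72 of 6 and 37 of 7, and 30 runs had 10 or more. The span from the first to the last base of a run had a median of 4076.5 bp and ranged from 1417 to 18854 bp. Peaks covered 58.2% of the bases within the runs, at 1.43 peaks per kb. Chains of 4, just outside the rule, numbered 229 and had a median span of 2476 bp and a median gap of 327 bp. The 127 runs of 5, just inside it, had a median span of 3340 bp and a median gap of 280 bp. A run did not always end far from its neighbour, since 55 of the 600 gaps that flank the runs were under 1250 bp, the shortest being 1001 bp.

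The gaps within runs were mostly far below the 1000 bp that the rule allows. Across 1686 gaps the median was 257.5 bp, the quartiles were 128 and 506.75 bp, and the shortest was 36 bp. Gaps of 100 to 199 bp were the most frequent class of 100 bp, with 408 gaps (24.2%), and 290 gaps (17.2%) were under 100 bp. In chains of 2 to 4 the median of 3337 gaps was 306 bp, and 20.6% were of 100 to 199 bp. The median gap was 306 bp in chains of 2, 280 bp in runs of 5 and 233 bp in runs of 11 or more. The distance between the midpoints of neighbouring members had a median of 698 bp. A gap of 750 bp or more occurred in 140 of the 300 runs, so those would be broken by a stricter limit.

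Over the list as a whole, members were wider than other peaks but did not stand apart in score. Their median width was 295.5 bp (quartiles 198 and 490.5 bp), against 244 bp (181 and 373 bp) for the others. Chromosome I was the exception, with medians of 248 bp for members and 252 bp for the others. Width enters the gap that the rule measures, so wider peaks are more easily chained. The median score was 9.55 for members and 9.18 for the others. Its meaning is not stated, and it only ranks peaks within a list. Divided at the quartiles of the whole list, the members fell into the 4 score classes from lowest to highest as 463, 492, 523 and 508 peaks. Runs were mixtures of high and low scores: over the 300 runs, the best score had a median of 34.03 and the lowest a median of 4.17. At least 1 peak of the best-scoring 25% of the list was present in 251 runs. The best-scoring member was the first or last peak of its run in 102 of 300 runs. No comparison was made with groups of peaks of the same sizes drawn at random from the list. The mixture of scores and these counts are therefore a description, and are not shown to be particular to runs. Across the 1686 neighbouring pairs, which share libraries and regions, the scores of neighbours had a Spearman rho of 0.069, against -0.018 across the 3337 neighbouring pairs of shorter chains.

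The run with the most peaks lay on chromosome II from 6820402 to 6839255 and held 25 peaks with a median gap of 150.5 bp. Replicate 1 had a peak at 21 of its members, replicate 2 at 14, and both at 12. Its best-scoring member, at 6827195 to 6829653, was 2459 bp wide with a score of 58.25 in the whole-series list. At that member replicate 1 had 1 peak, which ranked 127 in its own list, while replicate 2 had 3 separate peaks, the best of them ranking 634. The remaining members were narrower and lower in score, between 156 and 1014 bp wide and from 2.79 to 23.06 in score. Some were still wide and high-scoring for a member. The one at 6831572 to 6832300 was 729 bp wide with a score of 23.06. The upper quartiles of all members were 490.5 bp and 17.96.

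The runs with the next most peaks differed in how evenly they were built. On chromosome II from 10541969 to 10559376, 21 peaks covered 70.8% of 17408 bp with a median score of 15.15, and 13 of them were found in both replicates. The run on chromosome X from 12171701 to 12184817 had 18 peaks, of which 16 were found in replicate 1 and 12 in replicate 2, and its best-scoring member was the first one, at 12171701 to 12172473. That member ranked 263 in replicate 1 and 172 in replicate 2. On chromosome I from 526234 to 539642, 18 peaks were spaced more widely, with a median gap of 382 bp, and 7 were found in both replicates. A run of 15 peaks on chromosome I from 7079078 to 7088012 was found at all 15 members in replicate 1, by 10 peaks, and at 10 members in replicate 2.

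The run on chromosome V from 10464576 to 10474222 was supported mainly by replicate 1. Of its 16 peaks 13 were found in replicate 1 and 2 in replicate 2. Those 2 were its best-scoring members, at 10466323 to 10466976 and at 10467993 to 10468561, with scores of 34.44 and 23.9. The other 14 scored between 2.36 and 10.47. In all, 14 runs had 12 or more peaks, and the other 8 of these held 12 to 14 peaks each, with 4 runs tied at 12. Across the 8, between 0 and 14 members were found in replicate 1 and between 6 and 12 in replicate 2. One of them, on X from 7354386 to 7361315, had no replicate 1 peak, and its 12 peaks were all found in replicate 2. On IV the run with the most peaks, from 13025597 to 13033904, had 12 peaks, of which 8 were found in replicate 1, 6 in replicate 2 and 3 in both. The 8 also included the run of V with the longest span in bp, from 10715768 to 10728091 with 14 peaks, and that of III, from 7720783 to 7731871 with 13. Of the 14 runs 13 met a run of the replicate 1 list made by the same rule, the exception being the one on X without a replicate 1 peak, and 9 met one of the replicate 2 list.

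**Figure D1:**
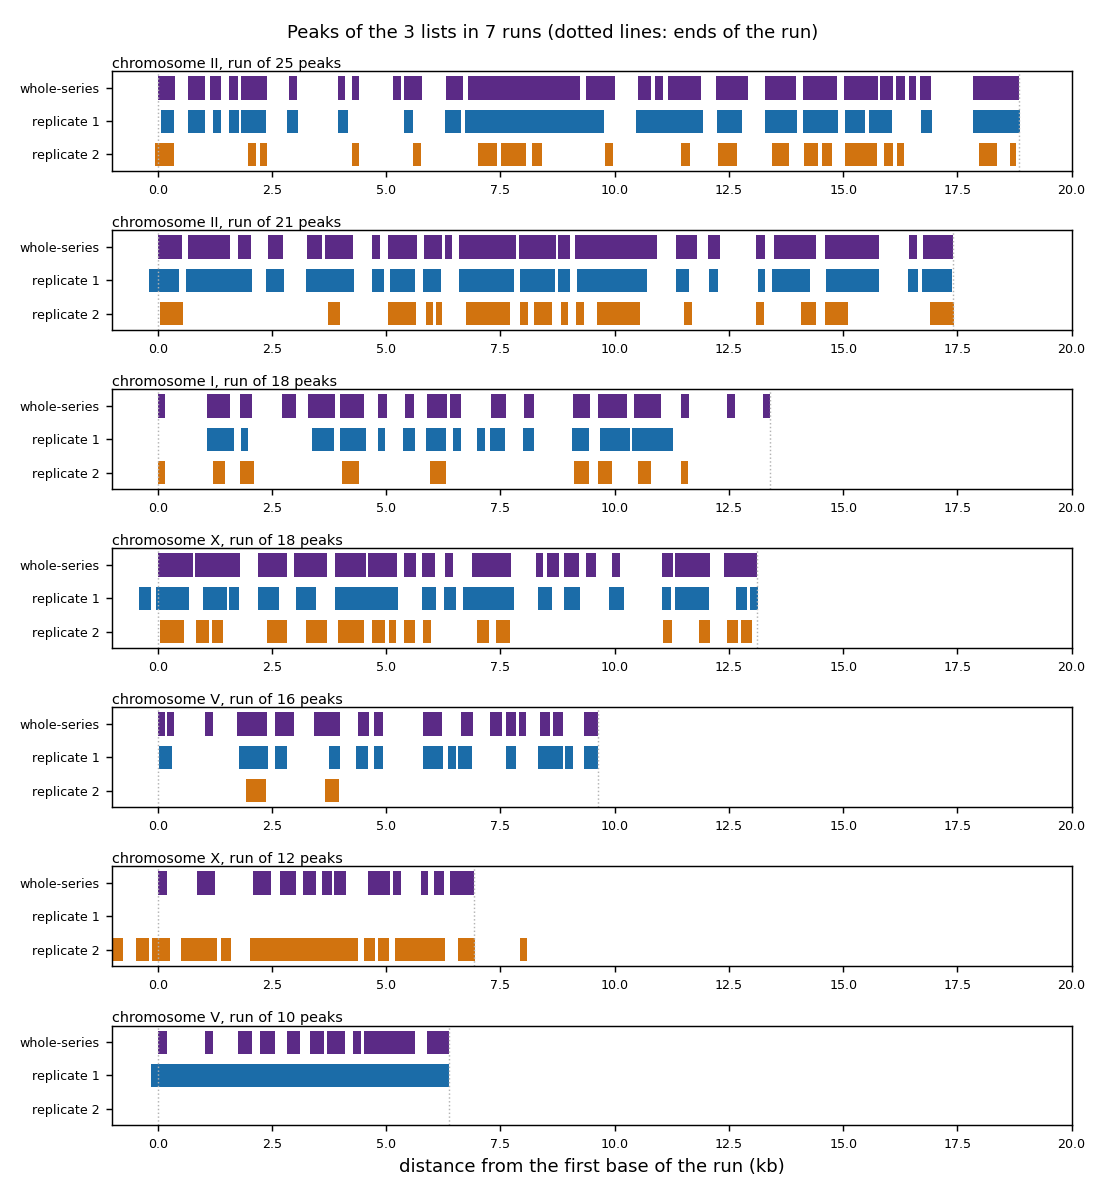
Peaks of the whole-series, replicate 1 and replicate 2 lists as blocks against the distance in kb from the first base of the run, for the 5 runs with the most peaks and for the largest run without a replicate 1 peak (X, 12 peaks) and the run without a replicate 2 peak (V, 10 peaks). In the run of 25 peaks the widest member meets 1 block in replicate 1 and 3 in replicate 2. In the last panel a single replicate 1 peak overlaps all 10 whole-series peaks.

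The 5 runs with the highest median score were not the longest ones. Most runs were short, and a median over few peaks varies more than a median over many. The highest median score, 31.58, belonged to a run of 5 peaks on chromosome III from 11463764 to 11468293, all 5 of which were found in both replicates. Next came V from 9544131 to 9547550 with a median of 30.14, where all 5 members were found in replicate 1 and 3 in replicate 2. The run on IV from 2991950 to 2999291 had 7 peaks and a median of 26.23, with all 7 found in replicate 1 and 5 in replicate 2. The last of the highest 5 were runs on II, from 11746339 to 11753359 with 7 peaks and from 3054708 to 3057079 with 5. The densest run of 6 or more peaks lay on III from 1936603 to 1940199, where 10 peaks stood in 3597 bp with a median gap of 96 bp. Here the balance was turned round, with all 10 members found in replicate 2 and 4 in replicate 1. The run on II from 2215128 to 2217511 also leaned to replicate 2, with 5 of 6 members there and 1 in replicate 1. The other runs among the 5 densest were on I from 3930501 to 3932787 and on II from 1320526 to 1323560 and from 10388029 to 10390792, with 6, 7 and 6 peaks.

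Runs were spread over all 6 chromosomes. Their number was 52 on I, 57 on II, 53 on III, 50 on IV, 45 on V and 43 on X. Per Mb this was highest on III, with 3.85, and on II, with 3.73, and lowest on V, with 2.15, and on X, with 2.43. Peaks as a whole were also sparsest on V. The share of a chromosome's peaks that were members was largest on II, at 16.3% (exact 95% interval 14.8 to 17.8%), and smallest on X, at 11.4% (10.3 to 12.7%). The remaining chromosomes lay between 13.5% and 14.9%, with intervals that overlap each other. These intervals are for counting error alone and take peaks as independent, which clustered peaks are not. The size of a run was alike across chromosomes, with a median of 6 peaks on each and a median gap between 234 bp on II and 280 bp on IV. The widest members were on X, with a median of 334.5 bp, and the narrowest on I, with 248 bp.

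Along the chromosomes, members lay less often in the arms than other peaks did on V and X. The outer 25% of the span at either end was called an arm. The arms of V held 24.7% of its 304 members and 44.1% of its other peaks, and those of X held 38.5% of 304 and 53.5%. On I, II, III and IV the members' share in the arms was between 47.2% and 51.0%, and that of the other peaks between 47.7% and 50.6%. The right arm of V had 3 runs, 0.574 per Mb, while the right arm of II had 21, 5.50 per Mb. The longest stretch between successive runs was also on V, 2.92 Mb from 16595632 to 19513953. In C. elegans the autosome arms are rich in repeats and heterochromatin and the centres in conserved genes.

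**Figure D2:**
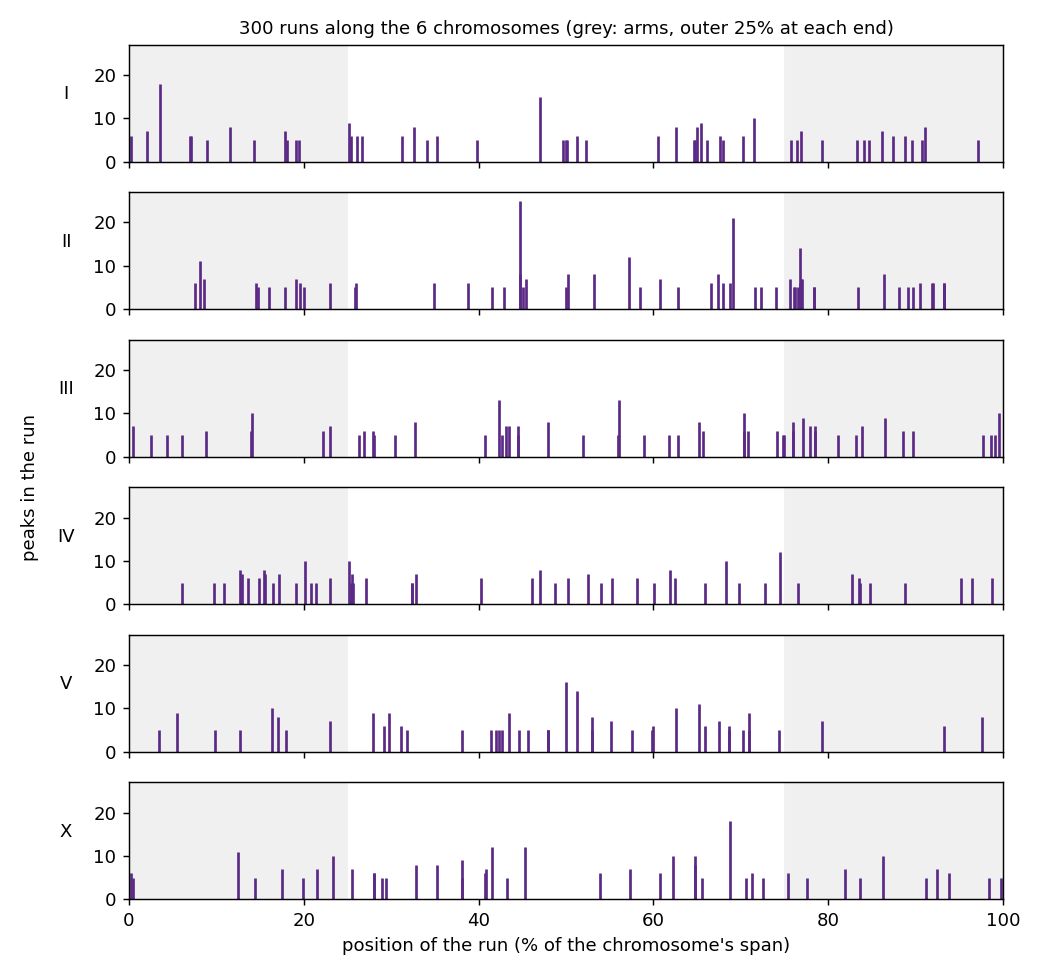
Each of the 300 runs as a line at its position (percent of the chromosome's span, x axis), with the number of peaks in the run on the y axis, 1 panel per chromosome and the arms in grey. The right arm of V holds 3 runs and the right arm of II 21.

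The replicate lists placed their runs differently. Chained by the same rule within its own list, replicate 1 had 235 runs with 1535 members and replicate 2 had 113 runs with 713. Of the autosomal members 34.4% lay in the arms in replicate 1 and 56.6% in replicate 2. For the peaks outside runs the shares were 43.5% and 51.3%. In replicate 2 the members' share in the arms was 63.6% to 67.2% on II, III and IV, but 17.4% on V. For the peaks outside runs it was 50.8% to 53.1% and 48.3%. On V the members' share in replicate 1 was 19.8%, so V had the lowest share of the 5 autosomes in both replicates. Peaks outside runs also had their lowest share on V in both replicates, at 37.6% in replicate 1.

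Support of the members differed between the replicates. Replicate 1 had a peak over 1581 of the 1986 members (79.6%, exact 95% interval 77.8 to 81.4%), against 69.4% (68.6 to 70.2%) of the peaks in shorter chains and 70.8% of all whole-series peaks. Replicate 2 had a peak over 60.6% of the members (58.4 to 62.8%), against 59.7% of the others (58.8 to 60.6%) and 59.8% of all. Peaks in both replicates were found at 951 members (47.9%, 45.7 to 50.1%), at 40.9% of the others (40.0 to 41.8%) and at 41.9% of all. A further 31.7% of members were found in replicate 1 only, 12.7% in replicate 2 only and 7.65% in neither. Of all whole-series peaks these shares were 28.9%, 18.0% and 11.2%. The members thus stood above the background in replicate 1 and near it in replicate 2. No test is given, since the whole-series list was not made independently of the replicates. The intervals take peaks as independent, but 141 neighbouring pairs of members shared a replicate 1 peak. They are therefore too narrow to compare members with others.

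Replicate 1 support was higher in longer chains, and replicate 2 support was not. Replicate 1 had a peak at 67.3% of the peaks that stood alone, 73.3% of those in chains of 4, 77.3% in runs of 5 and 85.1% in runs of 11 or more. Replicate 2 had a peak at 59.5%, 58.3%, 59.5% and 56.9% of the same classes. Its highest value was 69.1% in runs of 7, from 259 peaks (63.1 to 74.7%). Replicate 2 had a peak at 60.8% of the first and last members of runs and at 60.5% of those inside. For replicate 1 these shares were 76.8% and 80.8%.

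**Figure D3:**
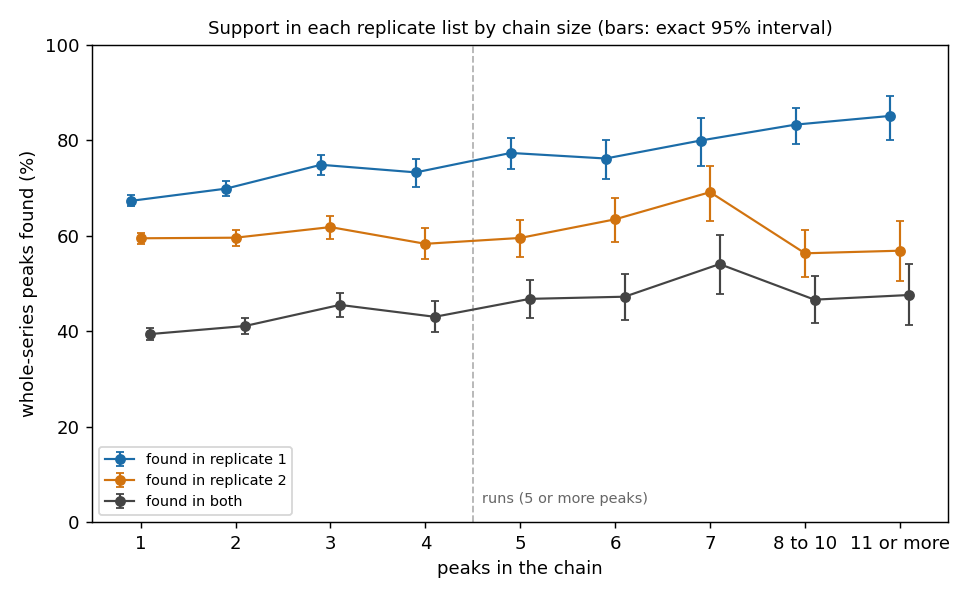
Share of whole-series peaks (percent, y axis) that overlapped a peak of replicate 1, of replicate 2 or of both by at least 1 bp, by the number of peaks in the chain (x axis), with bars for exact 95% intervals. The replicate 1 share goes from 67.3% for peaks alone to 85.1% in runs of 11 or more, and the replicate 2 share from 59.5% to 56.9%. The bars take peaks as independent, which clustered peaks are not.

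Width moved with this support. The share found in both replicates was 2.91% in the narrowest 25% of the list for members and 85.6% in the widest 25%, and 2.65% and 83.3% for the other peaks. Within the 4 width classes, from narrow to wide, members minus others was 0.262, -3.37, -4.48 and 2.35 percentage points, while without regard to width it was 6.98 points. For replicate 1 alone the difference was above 0 in all 4 width classes, between 2.46 and 9.08 points. For replicate 2 alone it was below 0 in all 4, between -9.69 and -1.57 points. In the 4 score classes the difference for both replicates stayed above 0, between 0.918 and 10.4 points.

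The chromosomes were not alike in replicate support of the members. On V 83.9% of the members were found in replicate 1 and 50.7% in replicate 2, against 66.6% and 59.8% of the other peaks on V. On I 40.5% of the members and 42.6% of the other peaks were found in both replicates. On the remaining 5 chromosomes the members' share in both was the higher one, by 4.51 points on V up to 13.5 points on X. Autosomal members in the arms were found in replicate 1 at 72.1% and in replicate 2 at 66.9%, against 59.5% and 64.9% of the other peaks there. In the centres the shares were 83.6% and 55.8% of members and 77.9% and 58.3% of the other peaks. Replicate 1 support was thus higher in the centres and replicate 2 support higher in the arms for members and for other peaks.

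Taken run by run, replicate 1 covered more members than replicate 2 in 197 of the 300 runs, fewer in 55 and equally many in 48. All members were found in replicate 1 in 104 runs, in replicate 2 in 26 runs and in both in 7 runs. No member was found in both replicates in 18 runs. The median run had 83.3% of its members found in replicate 1 and 60% in replicate 2. Of all whole-series peaks 70.8% were found in replicate 1 and 59.8% in replicate 2. A lean to replicate 1 is therefore not particular to runs.

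**Figure D4:**
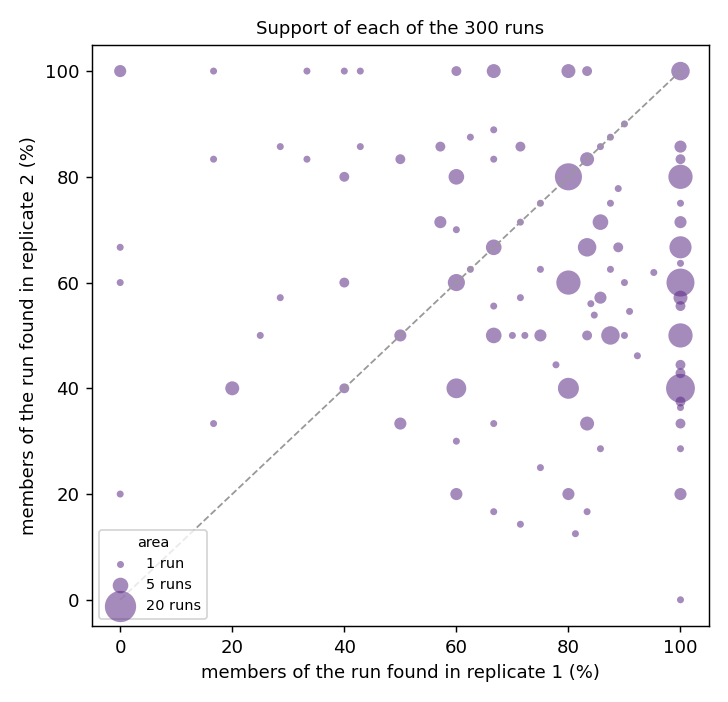
Percent of the members of each run found in replicate 1 (x axis) and in replicate 2 (y axis), with the area of a point giving the number of runs at that position and the dashed line marking equal shares. More runs lie below the line (197) than above it (55), and 104 stand at 100% of replicate 1. Of all whole-series peaks 70.8% were found in replicate 1 and 59.8% in replicate 2.

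In 6 runs there was no replicate 1 peak, and in 1 run no replicate 2 peak. The largest without replicate 1 was on X from 7354386 to 7361315, where all 12 members were found in replicate 2. Its scores were low, with a median of 3.13 and a highest value of 7.03. In replicate 2 the same region was crossed by 8 peaks, 1 of which, from 7356397 to 7358771, was 2375 bp wide, ranked 6 by width in its list and lay over 5 members. Of the remaining 5 such runs, those on III from 13589138 to 13592710 and on II from 2251692 to 2253108 had all 5 members found in replicate 2. The other 3 had 6, 5 and 5 members and lay on III from 3844934 to 3848003, on IV from 12730656 to 12732649 and on X from 17674415 to 17677608. In them replicate 2 had a peak at 4, 1 and 3 members.

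The run without a replicate 2 peak lay on V from 3434744 to 3441122. Its 10 whole-series peaks scored between 2.10 and 5.83. All 10 overlapped a single replicate 1 peak, from 3434607 to 3441115, and the last of them ended just beyond it, at 3441122. That replicate 1 peak was 6509 bp wide, had a score of 12.88 and was the widest of its list. This was the one run of the 300 whose members all overlapped the same replicate peak.

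Neighbouring members that overlapped the same replicate peak, here called under it, were counted across all runs. Whether the whole-series list split a site or the replicate list joined several was not tested. Of the 1686 neighbouring pairs of members, 141 (8.36%) lay under the same replicate 1 peak and 22 (1.30%) under the same replicate 2 peak. In chains of 2 to 4 the shares of 3337 pairs were 4.67% and 0.899%. The bridged pairs were close together, with a median gap of 67 bp for replicate 1 and 68 bp for replicate 2. They occurred in 98 runs for replicate 1 and 16 for replicate 2, and 3 or more members lay under 1 replicate 1 peak in 13 runs. When neighbours bridged by a peak of either replicate were joined first, 259 of the 300 runs still had 5 or more peaks. When all peaks closer than 200 bp were joined, 118 runs were left, so the number of runs depended on how finely the peaks were divided.

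The runs of the replicates were then compared with each other. Of the 235 replicate 1 runs 63 (26.8%) overlapped a replicate 2 run, which was 63 of 113 (55.8%) of the latter. Nearly all had at least 1 peak of the other replicate in their span. This held for 230 of 235 replicate 1 runs and 111 of 113 replicate 2 runs. Of all replicate 1 peaks 51.5% overlapped a replicate 2 peak, and of all replicate 2 peaks 65.2% overlapped a replicate 1 peak. A run holds several peaks by the rule, so at these shares most runs would have at least 1 such peak in any case. The counts of 230 and 111 therefore do not show that runs recur between the replicates. Of the 300 whole-series runs 175 met a replicate 1 run, 89 a replicate 2 run, 61 both and 97 neither. A run of the whole series was therefore often not a run in either replicate alone.

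The last comparison asked whether peaks in runs of 1 replicate recurred in the other more often than its other peaks, which the rule of the first list did not use. Of the 1535 replicate 1 members 54.9% (exact 95% interval 52.4 to 57.4%) overlapped a replicate 2 peak, against 51.0% (50.0 to 51.9%) of its other peaks and 51.5% of all. The difference per chromosome had a mean of 3.69 ± 4.32 percentage points (SD over 6 chromosomes) and was above 0 on 5 of 6. It did not pass the test (exact two-sided sign-flip permutation over chromosomes, p = 0.09375, Benjamini-Hochberg adjusted p = 0.09375 over 2 tests). Of the 713 replicate 2 members 76.6% (73.3 to 79.6%) overlapped a replicate 1 peak, against 64.4% (63.4 to 65.3%) of its other peaks and 65.2% of all. Here the mean difference was 13.1 ± 10.8 points and was again above 0 on 5 of 6 chromosomes (exact two-sided sign-flip permutation, p = 0.0625, adjusted p = 0.09375). The smallest p that 6 chromosomes allow is 0.03125. Chromosome V showed the largest difference in this direction, with 89.5% of 86 members and 59.6% of the others, and on X the values were 67.9% of 81 and 68.4%. The chromosomes come from the same 2 libraries, so the test says nothing of the spread between cultures. The intervals of the shares take peaks as independent, which clustered peaks are not. The direction turned when midpoints within 100 bp were required in place of overlap, to -6.17 points for replicate 1 members (exact permutation p = 0.03125) and -11.3 points for replicate 2 members (exact permutation p = 0.03125). Within width classes it turned for replicate 1 members, to -4.48 points (exact permutation p = 0.0625), but not for replicate 2 members, at 10.8 points (exact permutation p = 0.09375).

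**Figure D5:**
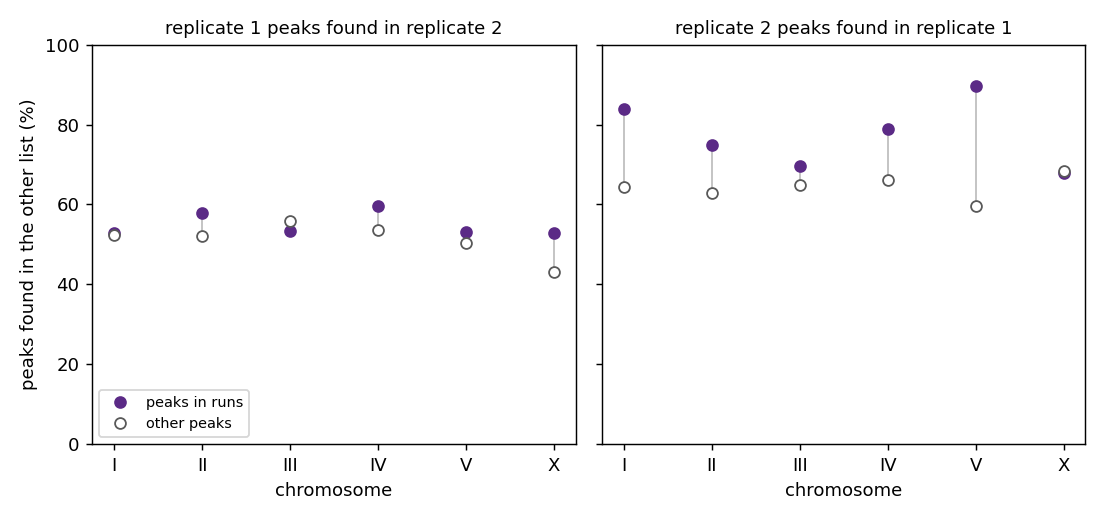
Share of the peaks of each replicate (percent, y axis) that overlapped a peak of the other replicate by at least 1 bp on each chromosome (x axis), for peaks in runs of that replicate (filled) and its other peaks (open). In the right panel the filled point is highest above the open one on V, at 89.5% against 59.6%.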

How the data were processed

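HDA-1 ChIP-seq peak lists of 2 replicates and of the whole series were used as deposited. BWA and ce10 are named in the submitters' processing notes, and per the file headers the peaks were called with MACS on WormBase WS220. The MACS version, threshold, control library and the making of the whole-series list are not stated in the sources used here. The deposited values are peak positions and a score per peak, which is the authors' own.

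Peaks were sorted by chromosome and start, and neighbours with a gap (next start minus end minus 1) under 1000 bp were chained. Shared means an overlap of at least 1 bp. Arms were the outer 25% of each chromosome's span, which ends at the last peak of the 3 lists. Shares carry exact (Clopper-Pearson) 95% intervals, which take peaks as independent. Recurrence between the replicates was tested by an exact two-sided sign-flip permutation over 6 chromosomes. The members and lists were chosen with earlier results of these data known. Named runs were the 12 with the most peaks (4 runs tied at 12 peaks, of which the rule took the 2 with the longer span), the 5 with the highest median score, the 5 densest of 6 or more peaks, those without a peak of 1 replicate and the longest of each chromosome. The bins and stretches without runs were chosen after their values were seen. Alternatives changed the gap, the run size, the overlap, the score limit, merging, the arms and the replicate used. The code was checked on simulated lists. Software was SciPy 1.17.1, NumPy 2.4.6, pandas 2.3.3 and matplotlib 3.10.9 under Python 3.11.15.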

Additional observations from a re-analysis of the deposited data

How the results depend on the processing

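The lists give no depth, so no limit of detection can be stated for a member absent from a list. Of 58 values under other settings, 27 stayed on their side of the unadjusted test or within the spread. Another 20 moved, 6 newly passed unadjusted and 5 reversed. For the shares of peaks in runs and in arms, the spread was the SD of the 2 replicate-list values, 4.14 and 15.8 points. The replicate lists were thus judged against an SD made from their own values. For the share in both replicates it was the exact 95% interval, and for the difference a width combined from both groups' intervals. The counts depend on these choices. Joining bridged neighbours and matching within width classes were chosen after seeing the data, as was the use of each replicate list alone. Matching within score classes was planned for the recurrence, but for members minus others it was also chosen after seeing the data. The share of peaks in runs was 5.99% with gaps under 500 bp, 26.5% with gaps under 2000 bp, 20.4% for chains of 4 or more, 4.65% for 8 or more, 3.49% in the better-scoring 50% of the list, 5.77% after joining peaks closer than 200 bp and 7.20% in the replicate 2 list. The members' share in both replicates, 47.9%, was 50.8% with gaps under 500 bp, 45.2% with gaps under 2000 bp, 53.2% after joining within 200 bp and 28.7% with midpoints within 100 bp. With 1 replicate left out it ranged from 60.6% to 79.6%. Members minus others in that share, 6.98 points, was 9.45 with gaps under 500 bp, 4.53 with gaps under 2000 bp and 2.77 in the better-scoring 50%, and ranged from 0.918 to 10.2 with 1 replicate left out. It reversed to -2.74 with midpoints and to -1.31 within width classes. The members' share in autosome arms, 44.5%, was 61.3% in the better-scoring 50% and 66.3% with left arm, centre and right arm of equal length. The arms then took up more of the span than in the main setting, so 66.3% cannot be set against 44.5%. Because the SD for this share was wide, 32.6% for chains of 8 or more and 56.6% in the replicate 2 list counted as within the spread. Recurrence of replicate 1 members passed unadjusted with gaps under 500 bp (6.97 points), chains of 4 or more (4.64) and within score classes (4.50). It reversed with midpoints (-6.17) and within width classes (-4.48). Recurrence of replicate 2 members passed unadjusted with gaps under 2000 bp (9.28), chains of 4 or more (11.8) and within score classes (12.5). It reversed with midpoints (-11.3). These 6 passes each had the smallest p that 6 chromosomes allow (exact permutation p = 0.03125), with no adjustment for the number of settings. The causes were not tested, except that fewer peaks or a stricter limit leave fewer peaks in runs by construction. No paired analysis was possible because no peak list of the inputs with the same replicate numbers was analysed here.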

Other observations

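Runs of HDA-1 peaks came close to each other in a few regions. Successive runs lay a median of 222 kb apart, but 18 of 294 distances were under 5000 bp and 27 were under 10000 bp. In bins of 1 Mb, the last bin of each chromosome being partial, 12 of 103 bins held no run and the median bin held 3. Chromosome II from 11000001 to 12000000 held 12 runs, and 76 of its 227 peaks (33.5%) were members. It was followed by III from 10000001 to 11000000 with 9 runs and 59 members of 204 peaks. The bin on IV from 2000001 to 3000000 had 8 runs and the largest member share of these 3, 54 of 158 peaks (34.2%). Across the 103 bins, which share both libraries, the number of members and the number of other peaks had a Spearman rho of 0.37.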
